A study of Saccharomyces cerevisiae with 36 samples.

Results

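EFM5 (YGR001C), DYN2 (YDR424C), SRC1 (YML034W) and TAD3 (YLR316C) were examined as budding yeast genes taken to have 2 introns on a splicing-sensitive array. The 4 genes were chosen for 5 adjacent probes of one symbol in the array annotation, which 7 genes have. RPL7A, RPL7B and RPS22B, 3 ribosomal protein genes whose introns host snoRNAs, were set apart. Without these 3, 4 of the 230 genes with a symbol remained, and no measured value entered the rule. HMRA1 and MTR2, with 7 and 9 adjacent probes, had probes of uncertain role and were not examined. The annotation does not state what each probe reads. The 5 probes were taken, from their order, as junction 1, intron 1, junction 2, intron 2 and exon, and intron 1 was taken as upstream and intron 2 as downstream. These roles are inferred, and every statement on an upstream or downstream intron rests on them.

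Most intron-containing genes of budding yeast carry a single intron, so these genes let the excision of separate introns from one transcript be compared. An intron is recognised at its 5′ splice site by the U1 snRNP, aided by the cap-binding complex, and at its branch point by Mud2 and then the U2 snRNP, before the U4/U6.U5 tri-snRNP joins and the spliceosome is activated. The excised intron leaves as a lariat, which is opened by the debranching enzyme and degraded. The 4 genes have unrelated products. EFM5 encodes a methyltransferase of the translation elongation factor eEF1A. DYN2 encodes the dynein light chain, which is also found at nuclear pores. SRC1 encodes a protein of the inner nuclear membrane, and TAD3 a subunit of the enzyme that converts adenosine to inosine at the wobble position of tRNAs.

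The study set total RNA of each of 18 mutants against total RNA of a wild type on 2-colour arrays, 36 in all. Each mutant had 2 arrays, with mutant and wild type in exchanged channels. The prp4-1a strain, with a temperature-sensitive allele of a U4/U6 snRNP protein gene, and its isogenic wild type SS330 spent 2 h at 37 °C after growth at 26 °C. The labels give growth at 26 °C for 16 deletion strains, set against BY4741: brr1 (a factor of snRNP assembly), msl1 (U2 snRNP), cus2 (a U2 snRNP assembly factor), snu17 (a protein that joins the spliceosome with the U2 snRNP), snu66 (tri-snRNP), prp17 and prp18 (second catalytic step), ecm2 (a factor of the active spliceosome), gcr3 (large cap-binding subunit), mud13 (small cap-binding subunit), mud1 and nam8 (U1 snRNP), mud2, snu40, upf3 (nonsense-mediated decay) and hsp104 (a chaperone with no known place in the spliceosome). For dbr1, which lacks the debranching enzyme, and its wild type, the labels give a mixture of RNA from haploids and diploids, growing and sporulating. Every array of a deletion strain other than dbr1 used BY4741 as the other channel, so the comparisons may share wild-type RNA.

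All values are log2 ratios, mutant over wild type, averaged over the usable spots of a probe (up to 4). To read an intron relative to its own transcript, the exon probe was subtracted on each array, which gives the intron index, and likewise for junctions. Arrays had 2127 to 2792 usable named spots of 3456, with a median of 2478. The direction of the deposited ratio is not given in the labels. Channel 2 over channel 1 was taken as likely, because in mud1 the exon probe of the deleted MUD1 gene was then at −2.56 ± 0.10 and in gcr3 that of the deleted STO1 gene at −5.59 ± 0.31 (SD, n = 2 each). The intron 1 probe of MUD1 was at −1.80 ± 0.03 in mud1, but that of STO1 was at 1.06 ± 0.13 in gcr3. An intron probe thus read above wild type in a strain labelled as lacking its gene, and the reason was not tested. The direction is nevertheless not settled. With the mutant in channel 2, 4 pairs of arrays correlated below −0.3 over all probes: prp4-1a with hsp104 (−0.43), cus2 (−0.40) and nam8 (−0.36), and snu17 with hsp104 (−0.36). With the sign turned, every direction and every rank below would be the opposite, and the counts higher and lower would change places. The sources used here do not say whether a mutant's arrays stem from separate cultures, so the p-values rest on the spread between arrays alone, which may be technical. One spread was shared by all mutants in each fit. The arrays of prp4-1a, mud13 and dbr1 lay further apart than that, at 3.08, 2.01 and 1.96 times the median spread for introns, so their errors are too small.

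The 2 introns of EFM5 responded differently in most mutants tested, and in opposite directions between classes of mutant. Intron 2 stood above intron 1 in 9 of 17 mutants and below it in 2, the strains without a cap-binding subunit. Over all 7 genes with 5 probes, EFM5, DYN2, SRC1 and TAD3 included, 21.6% of 97 tests called intron 2 higher than intron 1 and 13.4% called it lower (limma, Benjamini-Hochberg adjusted p under 0.05 over all these tests). EFM5, DYN2, SRC1 and TAD3 gave 13 higher and 5 lower of 64 tests, which would be 5 and 13 with the sign turned. EFM5 alone gave 11 of these 18 calls.

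In gcr3 the EFM5 intron 2 probe was at −0.47 and −0.43 on the 2 arrays and the intron 1 probe at 1.43 and 1.38. Both arrays thus had intron 1 raised and intron 2 slightly lowered relative to wild type. The intron 1 probe of the deleted STO1 gene also stood at 1.06 ± 0.13 in this strain (SD, n = 2), which limits what a raised intron probe shows there. The difference, intron 2 minus intron 1, was −1.86 ± 0.10 (SE, n = 2, limma adjusted p = 9.99e-12), so that intron 2 was 3.62-fold lower relative to intron 1. In mud13 the intron 2 probe was at −0.45 and −0.36 and the intron 1 probe at 0.53 and 0.92. The difference there was −1.13 ± 0.10 (adjusted p = 1.72e-08), or 2.19-fold. The EFM5 exon probe averaged −0.06 in gcr3 and was not called. By the index, intron 2 fell by 0.39 ± 0.17 in gcr3, just past the threshold (adjusted p = 0.0489) and not called without either gcr3 array or without the dye term, and stood at −0.29 ± 0.17 in mud13, not called. With arrays centred on exon probes, neither intron 2 probe was called (−0.17 in gcr3 and −0.14 in mud13), and that in mud13 was not called after centring on all probes either. The difference between the introns does not depend on centring.

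The opposite order was found in strains that lack proteins of early intron recognition other than the cap-binding complex. In mud2 the EFM5 intron 2 probe was at 1.82 and 2.11 and the intron 1 probe at 0.67 and 0.62, a difference of 1.32 ± 0.10 (adjusted p = 1.89e-09, or 2.50-fold). In nam8 intron 2 was at 1.23 and 1.89, whereas the intron 1 probe averaged 0.25 and was not called, a difference of 1.31 ± 0.10 (adjusted p = 1.89e-09). In mud1 the intron 2 probe was at 1.52 and 1.68 and the intron 1 probe at 0.60 and 0.72, a difference of 0.95 ± 0.10. In each of these strains the lower array of intron 2 lay above the higher array of intron 1.

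Both EFM5 introns rose in brr1, msl1, snu66 and snu17, and intron 2 more. The difference was 1.00 in brr1, 0.78 in msl1, 0.74 in snu66 and 0.57 in snu17 (SE 0.10, n = 2 each). In snu66 the intron 2 probe stood at 2.53 and 2.49 and the intron 1 probe at 1.79 and 1.76. Smaller differences of 0.40 in prp4-1a (adjusted p = 0.00374) and 0.37 in prp18 (adjusted p = 0.00632) were called as well. The prp4-1a arrays gave 0.17 and 0.64, and without the array with the mutant in channel 1 the difference was 0.26 and not called (adjusted p = 0.214). Without either array of prp18 the call there was lost too (adjusted p = 0.0512 and 0.0837). The 6 mutants with no call were cus2, ecm2, hsp104, prp17, snu40 and upf3, with differences between −0.25 (ecm2) and 0.22 (cus2). In dbr1 EFM5 introns were measured on 1 array and were not tested.

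**Figure D1:**
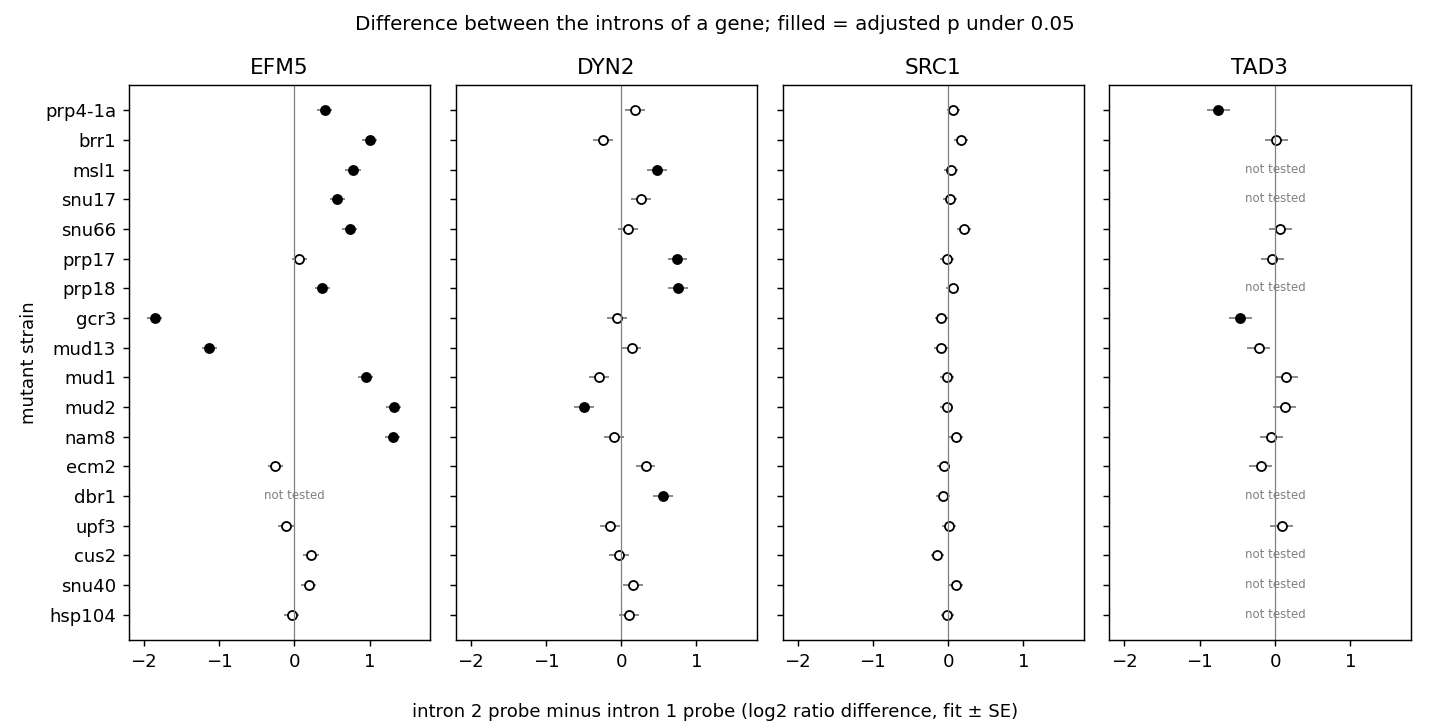
Difference between the intron 2 and intron 1 probes of each gene (x axis, log2 ratio difference, fit ± SE from limma, n = 2 arrays) in the 18 mutants (y axis). Filled points have an adjusted p under 0.05. EFM5 ranges between −1.86 in gcr3 and 1.32 in mud2, SRC1 stays within −0.14 and 0.21, and "not tested" marks mutants without a value on both arrays.

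By the index, EFM5 intron 2 rose in 9 of 17 mutants and fell in 1, and intron 1 rose in 9 and fell in 0 (0 also at an unadjusted p under 0.05). Over all introns and mutants 49.6% of 3702 tests were higher and 0.783% lower, the shares to set beside the count of each gene here and below. In prp4-1a the index of intron 2 was 4.50 and 4.15 and that of intron 1 4.33 and 3.51, or 20.0-fold and 15.1-fold on average. The exon probe contributed here, at −2.14 and −1.93, while the intron 2 probe itself was at 2.36 and 2.22. Next for intron 2 were msl1 (2.77 ± 0.17), brr1 (2.43), snu66 (2.41), mud2 (2.24) and snu17 (2.16), none of which could be told apart from its neighbour in this order, since their arrays overlapped. Then came mud1 (1.70) and nam8 (1.39), whose arrays overlapped each other, and prp18 (0.63). For intron 1 the order below prp4-1a was msl1 (1.99 ± 0.18), snu66 (1.68), snu17 (1.59), gcr3 (1.46), brr1 (1.42), mud2 (0.93), mud13 (0.84) and mud1 (0.76). The indices that were not called lay between −0.29 (mud13) and 0.31 (snu40) for intron 2 and between −0.08 (hsp104) and 0.25 (prp18) for intron 1. Of 17 steps between neighbouring mutants (dbr1 with 1 array), the arrays were apart at 2 for intron 2, below prp4-1a and below snu17, and at 3 for intron 1, below prp4-1a, brr1 and mud1.

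EFM5 intron 2 was among the highest of all introns measured in several mutants. It ranked 1 of 193 in msl1, 1 of 212 in mud1, 1 of 215 in mud2, 2 of 221 in nam8 and 3 of 212 in brr1. In gcr3 it ranked 209 of 214 and in mud13 211 of 215, near the bottom. EFM5 intron 1 ranked 44 of 214 in gcr3, 94 of 221 in nam8 and 35 of 215 in mud2.

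**Figure D2:**
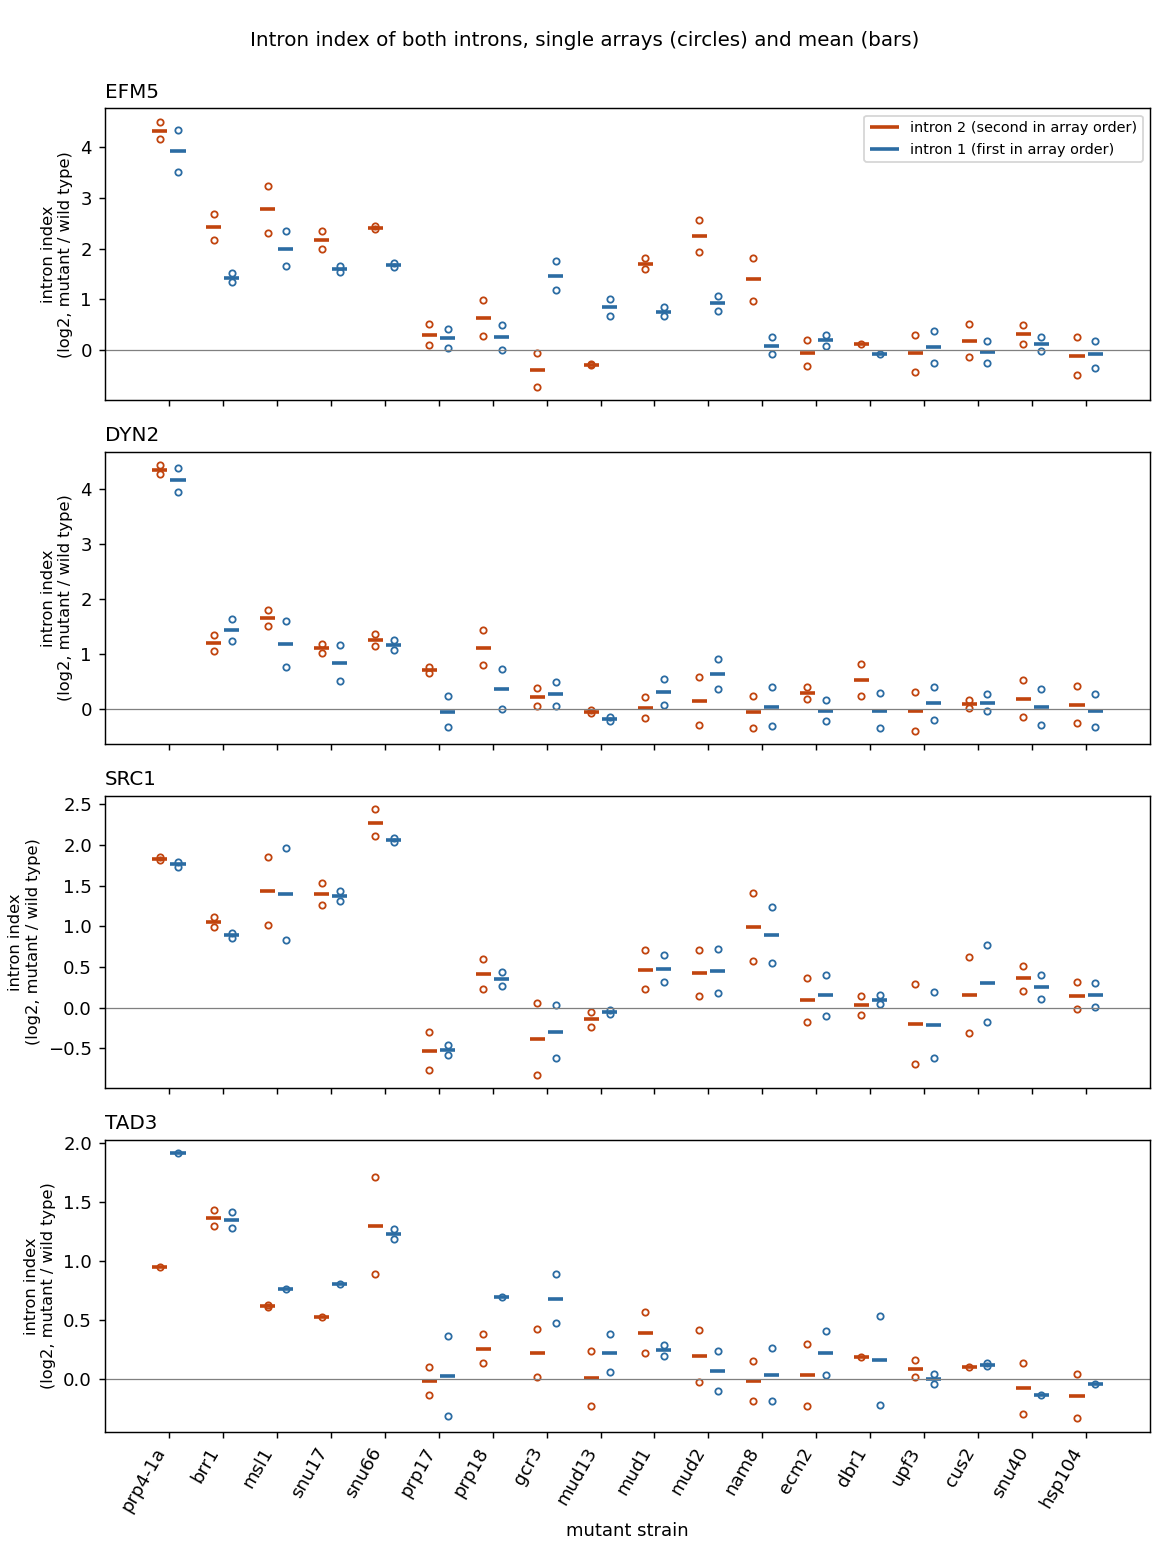
Intron index (y axis, log2 of mutant over wild type, intron probe minus exon probe) of intron 2 (left in each pair) and intron 1 in the 18 mutants (x axis). Circles are single arrays and bars their mean, which is a single array where 1 circle is shown. EFM5 intron 2 lies above intron 1 in mud1, mud2 and nam8 and below it in gcr3 and mud13, while both SRC1 introns lie together in every mutant.

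The introns of DYN2 were called different in fewer mutants, and their largest differences were smaller. Intron 2 stood above intron 1 in 4 of 18 mutants and below it in 1. In msl1 and prp18 intron 2 was the higher in both genes, whereas mud2 was called in opposite directions for EFM5 and DYN2. With zeros kept as values, the DYN2 difference in msl1 turned to −0.31 (adjusted p = 0.265), and those of DYN2 in mud2 (−0.49, adjusted p = 0.0576) and EFM5 in prp18 (0.26, adjusted p = 0.154) were not called. The largest differences were in the strains without the second-step factors. In prp18 the intron 2 probe was at 1.48 and 1.56 and the intron 1 probe at 0.69 and 0.86, a difference of 0.75 ± 0.13 (adjusted p = 9.32e-05, or 1.68-fold). In prp17 intron 2 was at 1.07 and 1.11, whereas intron 1 averaged 0.34 and was not called as deposited, a difference of 0.75 ± 0.13 (adjusted p = 9.32e-05). After either centring the DYN2 intron 1 probe in prp17 was called higher too (0.56 and 0.60). The EFM5 difference was 0.37 in prp18 and 0.07, not called, in prp17.

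In dbr1 DYN2 intron 2 was at 0.87 and 1.10 and intron 1 at 0.27 and 0.57, a difference of 0.56 ± 0.13 (adjusted p = 0.00178). On the array with the mutant in channel 1, the intron 1 value came from 1 usable spot and the intron 2 value from 2. With at least 2 usable spots required, this difference could not be tested, and the errors in dbr1 are too small, as given above. In msl1 the difference was 0.75 on one array and 0.20 on the other, with a fit of 0.47 ± 0.13 (adjusted p = 0.00674), and it was not called without the array with the mutant in channel 2 (0.19). In mud2, where EFM5 intron 2 was the higher, DYN2 intron 2 averaged 0.18, not called, and intron 1 was at 0.72 and 0.62. That difference was −0.49 ± 0.13 (adjusted p = 0.00521), and −0.31 and not called without the array with the mutant in channel 2. The DYN2 introns in gcr3 moved together, with an intron 2 probe at 0.91 and 0.85, an intron 1 probe at 0.92 and 0.96 and a difference of −0.06, not called.

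By the index, DYN2 intron 2 rose in 8 of 18 mutants and intron 1 in 6, and neither fell in any (0 also at an unadjusted p under 0.05). In prp4-1a the index was 4.43 and 4.28 for intron 2 and 4.40 and 3.96 for intron 1. The next mutants stood far below, with intron 2 at 1.66 ± 0.17 in msl1, 1.26 in snu66, 1.20 in brr1, 1.13 in prp18 and 1.11 in snu17. DYN2 intron 1 was highest after prp4-1a in brr1 (1.45 ± 0.20), followed by msl1 (1.19), snu66 (1.17), snu17 (0.85) and mud2 (0.64). The indices that were not called lay between −0.04 (nam8) and 0.30 (ecm2) for intron 2 and between −0.18 (mud13) and 0.38 (prp18) for intron 1. For intron 2 the arrays of neighbouring mutants in this order were apart at 3 of 17 steps, and for intron 1 at 1, the step below prp4-1a.

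The SRC1 intron probes gave nearly the same value in every mutant. Their difference was called in 0 of 18 mutants, with 1 at an unadjusted p under 0.05, and ranged between −0.14 in cus2 and 0.21 in snu66 (SE 0.09, adjusted p = 0.0748 in snu66). In snu66 the intron 2 probe was at 3.51 and 3.23 and the intron 1 probe at 3.16 on both arrays, or 10.4-fold and 8.94-fold. In prp4-1a intron 2 was at 2.40 on both arrays and intron 1 at 2.31 and 2.35. In gcr3 intron 2 was at −0.88 and −0.31 and intron 1 at −0.68 and −0.33. SRC1 is known for alternative 5′ splice sites that yield a long and a short protein, and the RefSeq gene table lists an older systematic name under it beside its own. Whether its 2 intron probes read separate introns could not be checked here.

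By the index, SRC1 intron 2 rose in 7 of 18 mutants and fell in 1, and intron 1 rose in 8 and fell in 1. The highest index was in snu66, at 2.44 and 2.11 for intron 2 and 2.09 and 2.03 for intron 1, above prp4-1a (1.83 ± 0.18 and 1.76 ± 0.18), and the arrays of the 2 strains did not overlap. Of EFM5, DYN2 and SRC1, SRC1 was the gene in which prp4-1a was not first. Then followed msl1 (1.43 and 1.39), snu17 (1.40 and 1.37), brr1 (1.06 and 0.89) and nam8 (1.00 and 0.89). In nam8, where 4.52% of all 221 introns were called higher, both SRC1 introns rose and ranked 3 and 5. In prp17 the index fell by 0.54 ± 0.18 for intron 2 (adjusted p = 0.0219) and by 0.52 ± 0.18 for intron 1 (adjusted p = 0.0256). The SRC1 exon probe in prp17 was at 0.66 and 0.47 while the intron probes averaged 0.03 and 0.05, so the index was low through the exon probe. Neither fall was called without either prp17 array, without the dye term or at a threshold of 0.01.

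In 3 mutants the SRC1 introns fell on different sides of the threshold with nearly equal values. The index was 0.47 and not called for intron 2 and 0.48 and called for intron 1 in mud1, and 0.43 and 0.45 likewise in mud2. In prp18 intron 2 was called at 0.41 and intron 1 not called at 0.35. Of 17 steps in the order of mutants, the arrays of neighbours were apart at 2 for intron 2 and at 4 for intron 1, and apart below snu66 and below snu17 for both.

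TAD3 had the thinnest data of the 4 genes. Its intron 1 probe had a value on 31 of 36 arrays and a median of 2 usable spots, against 4 for every probe of EFM5, DYN2 and SRC1, and its introns could be compared in 11 mutants. The difference was called lower in 2 and higher in 0 of these (0 also at an unadjusted p under 0.05). In prp4-1a the intron 2 probe was at 1.31 and 1.15 and the intron 1 probe at 1.85 and 2.12, a difference of −0.75 ± 0.15 (adjusted p = 0.00133). With array weights this call was lost (adjusted p = 0.227). In gcr3 the intron 2 probe was at 0.30 and 0.66 and the intron 1 probe at 0.76 and 1.13, a difference of −0.46 ± 0.15 (adjusted p = 0.0302), which was not called without either array (adjusted p = 0.167 and 0.151). In brr1 the probes were at 0.93 and 1.17 for intron 2 and 0.92 and 1.15 for intron 1, and on the snu66 arrays the difference was 0.43 and −0.30, with opposite signs.

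By the index, TAD3 intron 2 rose in brr1 (1.37 ± 0.20), snu66 (1.30) and msl1 (0.62) of 14 mutants tested. Intron 1 rose in brr1 (1.35 ± 0.19), snu66 (1.23) and gcr3 (0.68) of 12. The indices that were not called lay between −0.15 (hsp104) and 0.39 (mud1) for intron 2 and between 0.00 (upf3) and 0.24 (mud1) for intron 1. In the other mutants the index had a value on 1 array only and was not tested, prp4-1a and snu17 among them. Their single values were 0.95 for intron 2 and 1.91 for intron 1 in prp4-1a and 0.52 and 0.81 in snu17.

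Averaged over mutants, the difference did not pass the test for any of the 4 genes. The mean difference, intron 2 minus intron 1, was 0.27 ± 0.82 for EFM5 (SD, n = 17 mutants, 12 above 0), 0.14 ± 0.34 for DYN2 (n = 18, 11 above 0), 0.02 ± 0.09 for SRC1 (n = 18, 9 above 0) and −0.11 ± 0.28 for TAD3 (n = 11, 5 above 0). A two-sided permutation test that exchanged the sign of each mutant's value gave adjusted p = 0.342, 0.342, 0.576 and 0.342 over the 6 genes with 5 probes that had more than 1 mutant. The residual SD between single arrays was 0.14 for EFM5, 0.19 for DYN2, 0.12 for SRC1 and 0.23 for TAD3, whereas the values over mutants are means of 2 arrays.

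The intron 2 and intron 1 probes of a gene were correlated over mutants with r of 0.64 for EFM5 (n = 17), 0.87 for DYN2 (n = 18), 0.998 for SRC1 (n = 18) and 0.91 for TAD3 (n = 11). Without prp4-1a, r was 0.58, 0.81, 0.998 and 0.90. These are descriptions only, since the probes of a gene share arrays and wild-type RNA. Of the snoRNA host genes, RPS22B had r of 0.73 (n = 18) and RPL7B of −0.05 (n = 14), and RPL7A was measured at both introns in 1 mutant. Their differences, intron 2 minus intron 1, ranged between −0.92 (upf3) and 1.01 (snu17) for RPS22B and between −0.98 (prp4-1a) and 2.54 (prp18) for RPL7B.

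**Figure D3:**
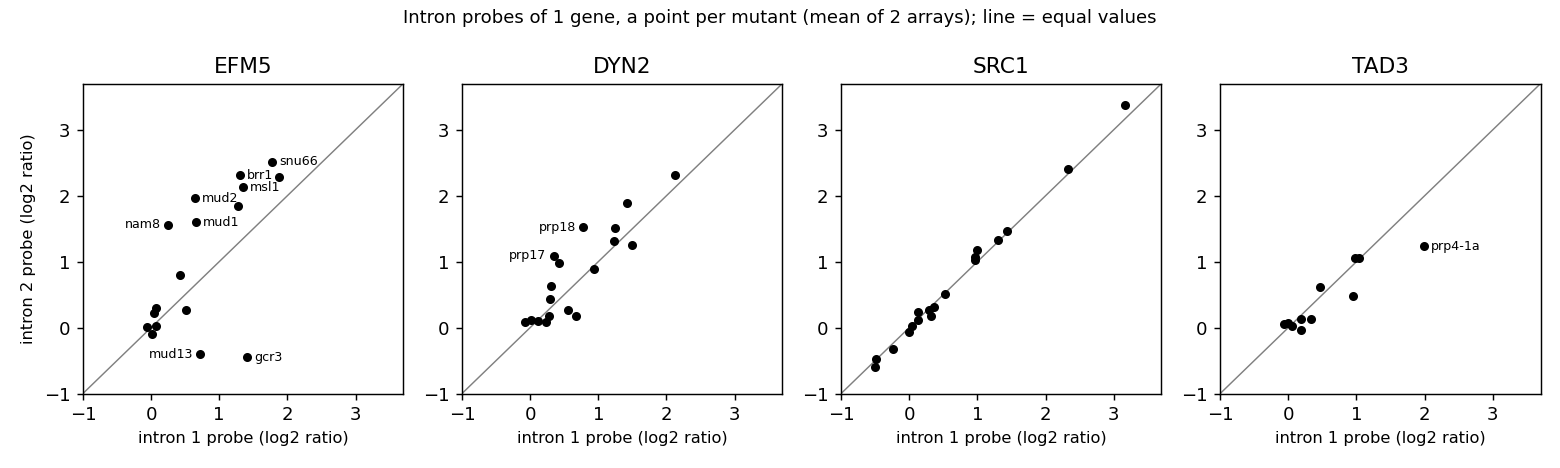
Intron 2 probe (y axis) against intron 1 probe (x axis), both as log2 ratios of mutant over wild type, with a point per mutant (mean of 2 arrays) and a line of equal values. Mutants with a gap above 0.7 are named. For EFM5, gcr3 and mud13 lie below the line and mud2, nam8 and mud1 above it, and the SRC1 points follow the line.

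Set against hsp104, which lacks a chaperone, the EFM5 difference was called higher in 9 of 16 other mutants and lower in 2, and the DYN2 difference higher in 2 and lower in 1 of 17. Over the genes with 5 probes that could be tested here, EFM5, DYN2 and SRC1 included and TAD3 and RPL7A not, 21.2% of 80 contrasts were higher and 5% lower. Of those 17 higher and 4 lower calls, 11 and 3 were from EFM5 and DYN2, so the share is largely their own. The strains called for EFM5 were those called against wild type. For DYN2 they were prp17 (0.64), prp18 (0.64) and mud2 (−0.60), while msl1 and dbr1 were not called. SRC1 had 0 calls of 17 (limma, 0 also at an unadjusted p under 0.05), and TAD3 could not be tested, since its intron 1 probe had a value on 1 hsp104 array. With the sign turned, the 11 higher and 3 lower contrasts would be 11 lower and 3 higher.

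In the strains where nearly all introns on the array rose, those of the 4 genes rose too. Over all mutants 53 of their 132 tests were higher and 3 lower (3 and 53 with the sign turned), where 49.6% and 0.783% of the 3702 tests of all introns were. In brr1 all 8 rose, in snu66 all 8, in msl1 all 7 tested, in prp4-1a all 6 tested and in snu17 all 6 tested. The share of all introns called higher was 94.3% in brr1, 92.6% in snu66, 94.3% in msl1, 97.2% in prp4-1a and 94.2% in snu17. These counts do not stand out from the background. In mud1 3 of 8 rose (25% of all), both EFM5 introns and SRC1 intron 1, and in mud2 DYN2 intron 1 as well (4 of 8; 43.3%). In nam8 EFM5 intron 2 and both SRC1 introns rose (3 of 8; 4.52%). If the SRC1 probes read the same intron, the 2 calls of SRC1 there are not separate. In prp18 3 of 7 rose (74.9%), intron 2 of EFM5, DYN2 and SRC1. In prp17 DYN2 intron 2 rose and both SRC1 introns fell, of 8 tested (30.9% higher and 5.8% lower).

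By the index, few of the 8 introns rose in dbr1, gcr3, mud13 and upf3, where many other introns did. In dbr1, where 81.6% of 185 introns were called higher with a median index of 1.68, 1 of 5 tested rose, DYN2 intron 2 (0.25 and 0.82 on the 2 arrays, fit 0.53 ± 0.17). The others were TAD3 intron 1 at 0.16, SRC1 intron 1 at 0.10, SRC1 intron 2 at 0.03 and DYN2 intron 1 at −0.03, none of them called. They ranked between 172 and 183 of 185. On the dbr1 array with the mutant in channel 1, each of these intron probes had only 1 usable spot. TAD3 intron 1 and the TAD3 exon probe had 1 on either array, with the exon probe at −0.51 and 0.59. In gcr3 the index of 2 of 8 rose, EFM5 intron 1 and TAD3 intron 1, and that of EFM5 intron 2 fell (66.4% and 1.87% of all). The intron probes themselves were also called higher there for DYN2 introns 2 and 1 (0.88 and 0.94) and TAD3 intron 2 (0.48), under both ways of centring too. The DYN2 exon probe, which the index subtracts, was called higher at 0.66. Both SRC1 intron probes were called lower as deposited (−0.60 and −0.51) but not with centring on exon probes. By the index, EFM5 intron 1 rose in mud13, 1 of 8 (50.2%), and in upf3 0 of 8 (36.7%; limma). In upf3 none was past an unadjusted p of 0.05 either. No test of the 4 genes against the others was made. In cus2, snu40 and hsp104 none of the 7 tested was called, nor any other intron (0% each), and in ecm2 none of 8 (3.98%). None of these was past an unadjusted p of 0.05.

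**Figure D4:**
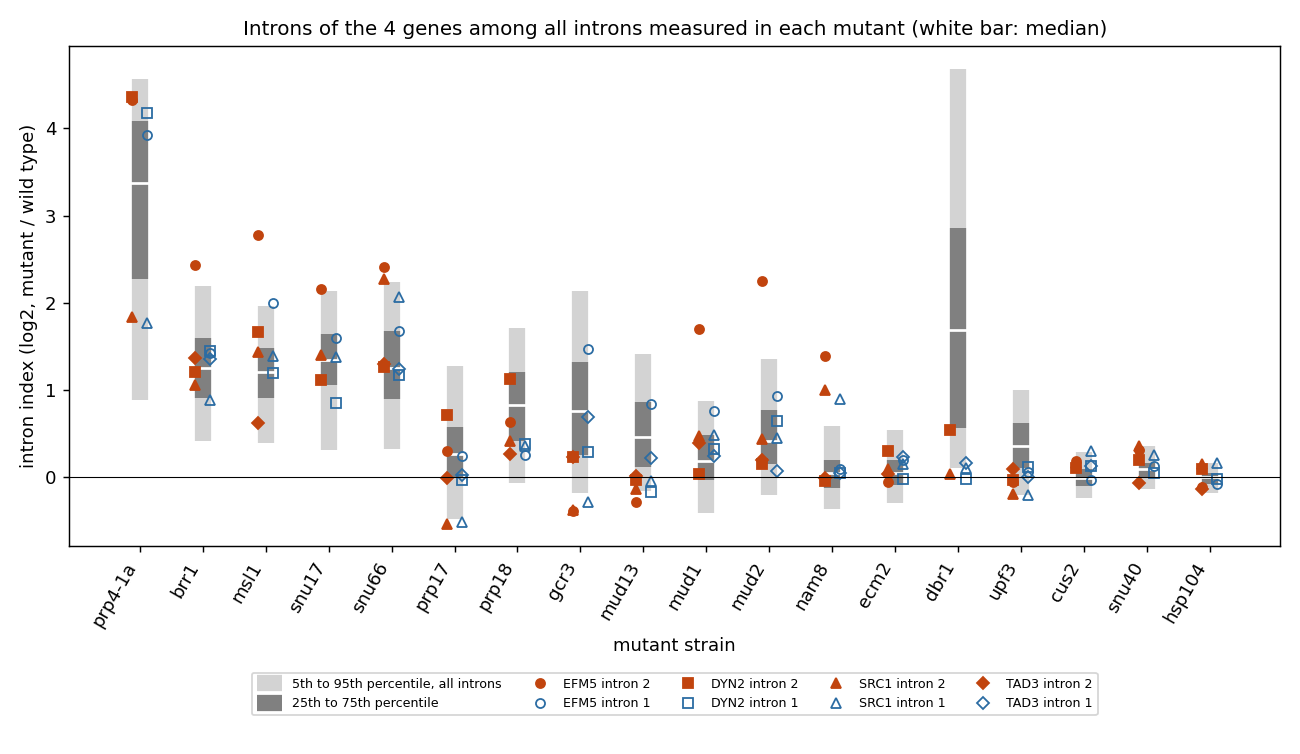
Intron index (y axis, log2 of mutant over wild type) of each measured intron of the 4 genes, intron 2 filled and intron 1 open, over the distribution of all introns in that mutant (grey: 5th to 95th and 25th to 75th percentile, white bar: median). EFM5 intron 2 lies above the 95th percentile in brr1, msl1, mud1, mud2, nam8, snu17 and snu66. In dbr1 the 5 introns tested, of DYN2, SRC1 and TAD3, lie below the 25th percentile, and EFM5 has no point.

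At exon probes, which follow the transcript as a whole, 10 of 70 tests were higher and 6 lower (6 and 10 with the sign turned), against 4.7% higher and 24% lower of 4042 tests over all genes. In bulk RNA, fewer cells with a transcript and less of it per cell cannot be told apart. EFM5 fell in prp4-1a (−2.14 and −1.93), msl1 (−0.46 and −0.83), prp17 and snu17 and rose in ecm2. With arrays centred on exon probes the prp4-1a and msl1 calls stood at −0.84 and −0.39, and the other 3 were lost. The exon probes of all genes had a median of −1.24 in prp4-1a, where 8.07% were called higher and 76.2% lower, and the EFM5 and DYN2 values there lay below that median.

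DYN2 exon signal rose in gcr3 (0.85 and 0.47), mud13 (0.14 and 0.80), prp17, prp18 and snu17, with fits between 0.38 and 0.66, and fell in prp4-1a (−2.19 and −1.90). These 5 rises were called under both ways of centring as well. Of all genes 6.64% were higher and 50% lower in gcr3, 5.33% and 41.3% in prp17, and 19.3% and 44.8% in prp18. SRC1 rose in snu66 (1.07 and 1.12, or 2.14-fold), prp18 (0.79 and 0.43), prp17 (0.66 and 0.47) and prp4-1a (0.58 and 0.55), and these 4 calls held under both ways of centring. In snu66 2.69% of all genes were called higher. SRC1 stood at −0.27 in upf3, called lower as deposited and not called after either centring. TAD3 was called in 0 of 16 mutants (0 also at an unadjusted p under 0.05), with values between −0.31 and 0.26, of which the highest, in gcr3, was called after either centring (0.42 and 0.55).

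The junction index was called far less often than the intron index. It was higher in 4 and lower in 4 of 139 tests (1.45% and 8.34% of 3873 over all genes). Of these 8, 4 were in prp4-1a and 3 in prp17. In prp17, where 18.1% of all junctions were lower, the SRC1 junction index was −0.99 ± 0.21 for junction 2 and −0.63 ± 0.21 for junction 1. The SRC1 exon probe was raised there, at 0.66 and 0.47. The SRC1 junction probes were at −0.31 and −0.52 (junction 2) and −0.08 and −0.04 (junction 1), neither called lower. The index of EFM5 junction 1 was at −0.22 and −0.37 in prp17. In brr1 TAD3 junction 2 was at 0.77 and 0.58 (2.33% of all higher). In prp4-1a 16.5% of all junctions were higher and 54.7% lower. There the index was −0.31 ± 0.13 for EFM5 junction 2 and 0.54 ± 0.09 for junction 1. For DYN2 junctions 2 and 1 it was 1.03 ± 0.16 and 0.26 ± 0.07. The junction probes themselves were all called lower there as deposited. Junctions 2 and 1 were at −2.35 and −1.50 for EFM5 and at −1.02 and −1.79 for DYN2. The exon probes, which the index subtracts, were at −2.04 for EFM5 and −2.05 for DYN2. The 2 arrays lay far apart, with the index of EFM5 junction 2 at 0.20 and −0.83 and that of DYN2 junction 2 at 1.72 and 0.33.

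Over the 7 genes, these 4 included, the difference junction 2 minus junction 1 was higher in 22 and lower in 5 of 125 tests (17.6% and 4%). For the 4 genes it was higher in 3 and lower in 4 of 71 tests, so most of the lower calls were their own. It was −0.86 ± 0.08 for EFM5 and 0.77 ± 0.13 for DYN2 in prp4-1a, and 0.51 ± 0.10 for TAD3 in brr1. For SRC1, whose intron difference was called in no mutant, the junction difference was called at 0.21 in snu17, −0.25 in snu66, −0.33 in prp4-1a and −0.36 in prp17 (SE 0.08, n = 2 each). In mutants other than prp4-1a no junction difference of EFM5 was called. Over all mutants the EFM5 junction difference averaged −0.09 ± 0.20 (SD, n = 18, 5 above 0, permutation test adjusted p = 0.023). Over the 16 deletion strains alone it was −0.045 with an adjusted p of 0.0816, and with single arrays left out the adjusted p ran up to 0.083. The permutation test takes the mutants as independent, which they are not if they share wild-type RNA. DYN2 stood at 0.01 (adjusted p = 0.939), SRC1 at −0.07 and TAD3 at 0.08 (permutation test, adjusted p = 0.0802 each).

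**Figure D5:**
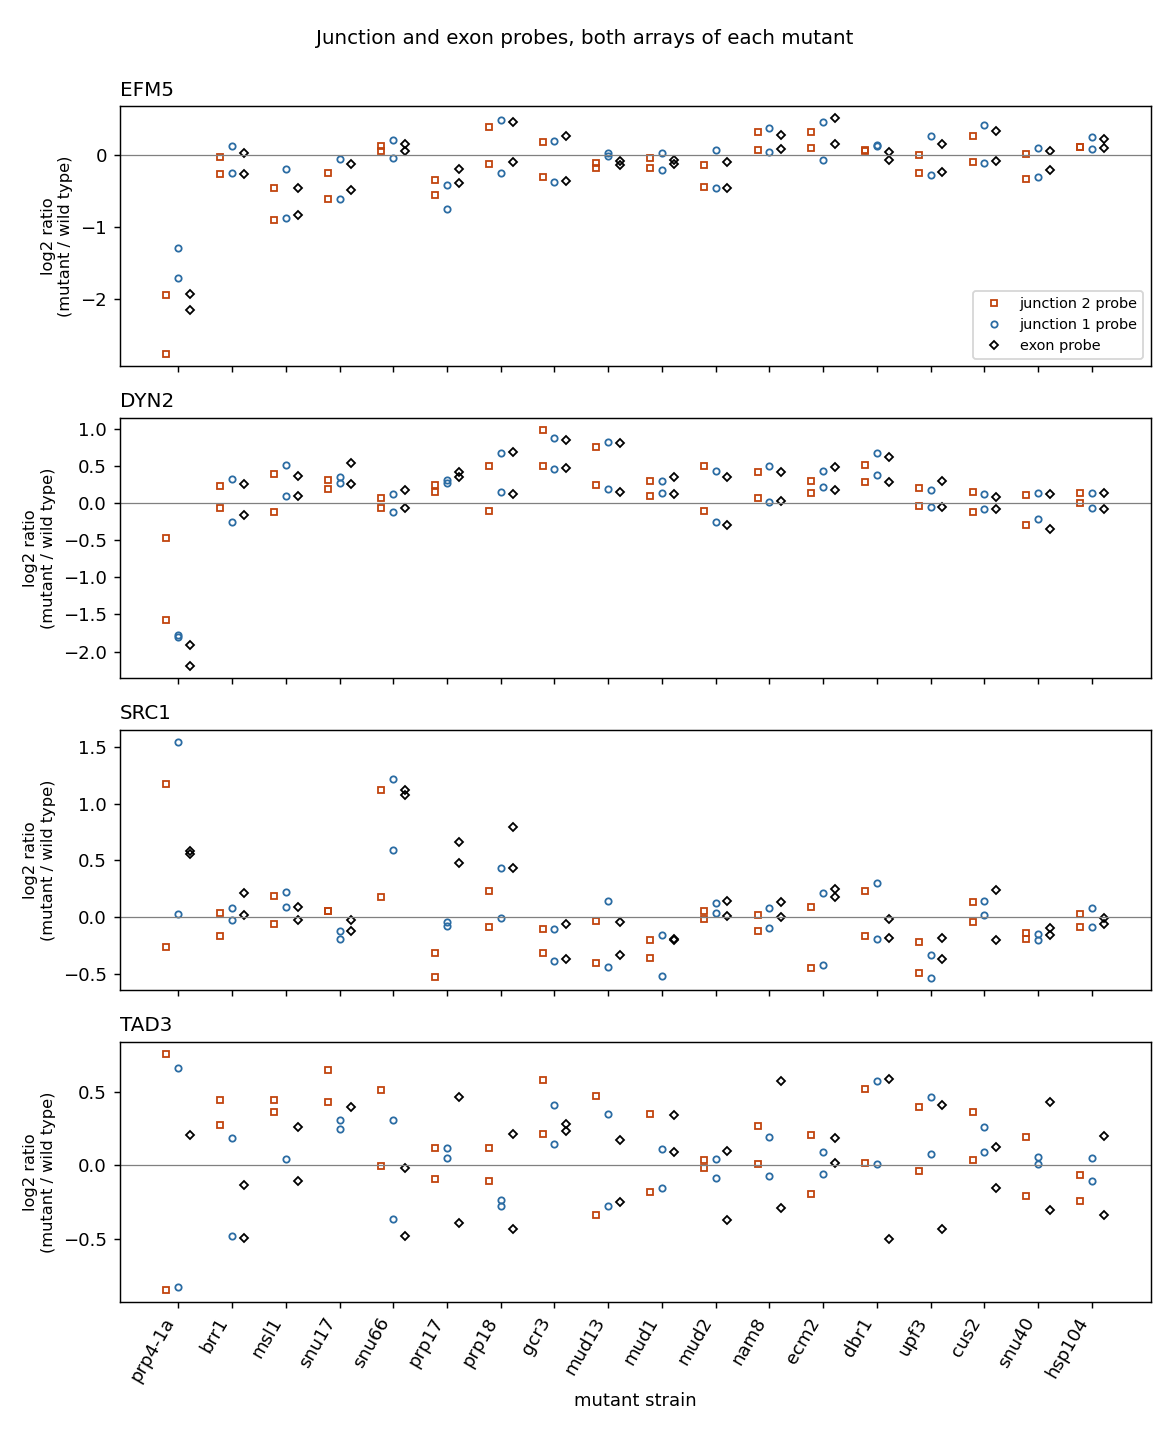
Junction 2, junction 1 and exon probes (y axis, log2 ratio of mutant over wild type) of the 4 genes in the 18 mutants (x axis), both arrays shown as separate points. The exon probes of EFM5 and DYN2 fall to about −2 in prp4-1a, the SRC1 exon probe is highest in snu66 (1.07 and 1.12), and TAD3 arrays scatter to both sides of 0.

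The introns whose index was most like that of each intron over the mutants were sought among introns of other genes measured in at least 15 mutants. EFM5 intron 2 was most like RIM1, a gene for a mitochondrial DNA-binding protein (r = 0.96, n = 16), and NYV1, a vacuolar SNARE gene (r = 0.90, n = 17), with a median r of 0.70 over all candidates. EFM5 intron 1 was most like TMA20, a ribosome-associated factor gene, and NCB2, a transcription regulator gene (r = 0.97 each, n = 17), with a median of 0.87. DYN2 intron 2 was most like RPP1B, a ribosomal stalk protein gene (r = 0.96, n = 16), and MMS2, a ubiquitin conjugation gene (r = 0.95, n = 18), with a median of 0.77. DYN2 intron 1 was most like TMA20 (n = 17) and the ribosomal protein gene RPL43B (n = 18, r = 0.96 each), with a median of 0.76. SRC1 intron 2 was most like MRPL44, a mitochondrial ribosomal protein gene (r = 0.87), and MUD1, which the mud1 strain lacks (r = 0.86), and intron 1 like MUD1 (r = 0.87, n = 18 each) and EFM5 intron 2 (r = 0.86, n = 17), with medians of 0.49 and 0.50. Without prp4-1a the values stayed between 0.83 and 0.94. All points share arrays and wild-type RNA, and TAD3 introns were measured in too few mutants.

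Other intron genes with neighbouring roles were read for context, with no claim on the group. Over all introns 49.6% of 3702 tests were higher and 0.783% lower, so counts near these shares do not stand out. Beside EFM5, EFB1, which encodes a subunit of the elongation factor eEF1, had its intron raised in 9 of 18 mutants. Beside DYN2, the tubulin genes TUB1 and TUB3 rose in 4 of 7 and 8 of 18, CIN2, a tubulin folding gene, in 9 of 17 and GIM5, a prefoldin subunit gene, in 8 of 18. Beside SRC1, the mRNA export gene YRA1 rose in 2 of 18 and fell in 1, and the helicase gene DBP2 rose in 6 of 18. Beside TAD3, TAN1, a tRNA modification gene, rose in 12 of 18 and POP8, an RNase P subunit gene, in 8 of 18. In dbr1 the indices of these genes lay between 0.25 (TAN1, not called) and 4.71 (POP8).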

How the data were processed

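The values used are log2 ratios of the 2 channels, 1 per spot and array, as deposited by the authors in a table of the whole series. The steps between scanned image and ratio, including any background treatment or scaling, and the genome build are not stated in the labels or file headers. Base 2 rests on differences between recurring values: 31 of 103 matched, within 3e-08, log2 of some whole-number ratio, against 3 with the next best base. A constant added per array is possible, and intensities were not used here, so which probes lay above background is unknown and the number of arrays limits the precision.

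Spots at exactly 0 and blanks were treated as missing. The 4 spots of a probe were averaged, with the last 2 blocks of the array read in reverse order, in which the spots of the 7 genes with 5 probes correlated better. Ratios were turned to mutant over wild type by channel. Names come from the array's annotation, and all 230 symbols were found in the RefSeq gene table of R64. No coordinates or sequences are printed, since no genome of the files' build was used here. Of 724 named probes, 21 had an uncertain role and were left out.

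Each measure was fitted with limma 3.58.1 in R 4.3.3 (lmFit, eBayes) over all 36 arrays, with 1 mean per mutant plus a dye term shared by all, and tested where both arrays of a mutant gave a value. Benjamini-Hochberg adjustment, with a threshold of 0.05, was made within a mutant for intron index, junction index, exon and single probes, and over the 7 genes with 5 probes and all mutants for differences between introns or junctions and for contrasts with hsp104. Means over mutants were tested with 100000 sign exchanges, which take the mutants as independent although they may share wild-type RNA. The array numbers 5 and 3 in the labels coincide with which channel held the mutant. The fits were run on simulated data before use, with independent errors and the same spread on all arrays. That simulation cannot show the error rates where arrays differ in spread or share material.

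Named were the 4 genes in every mutant, the other genes with 5 probes as a group, the deleted genes, the 2 most similar introns of other genes and short lists by role, of which MTR2 had probes of uncertain role and no value. Genes, lists and tests were chosen with earlier results of these data known. Alternatives were zeros kept, at least 2 usable spots, the median of spots, each array left out, 16 deletion strains only, no dye term, a trend and robust spread, array weights by mutant, a threshold of 0.01 and, for exon values, centring on all probes or on exon probes. Testing mutants with 1 measured array was added after seeing the data.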

Additional observations from a re-analysis of the deposited data

Results flagged for a closer look

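The difference between the introns of a gene was tested for whether it was unlike that in hsp104 (contrast in the limma fit, intron 2 minus intron 1, mutant minus hsp104, n = 2 arrays each, adjusted p under 0.05). For EFM5 it was larger than in hsp104 by 1.36 in mud2, 1.34 in nam8, 1.04 in brr1, 0.98 in mud1, 0.82 in msl1, 0.77 in snu66, 0.61 in snu17, 0.44 in prp4-1a and 0.41 in prp18. It was −1.82 in gcr3 and −1.09 in mud13. For DYN2 the contrast was 0.64 in both prp17 and prp18 and −0.60 in mud2. The mud2 strain thus had EFM5 intron 2 and DYN2 intron 1 as the higher of their pairs. In hsp104 itself the differences were −0.04 for EFM5 and 0.11 for DYN2, neither called. All contrasts share the 2 hsp104 arrays, and without the one with the mutant in channel 2 the higher calls fell to 7, against 11 with both.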

How the results depend on the processing

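The replicate numbers in the labels coincide with channel orientation on every array, so orientation and shared material cannot be told apart. Deviations of same-numbered arrays correlated with r between −0.46 and 0.69 over 153 pairs of mutants (median 0.29). The dye term is this replicate block. Without the replicate block no call on the difference between introns changed, but lowered intron indices numbered 0 instead of 3, lowered junctions 2 instead of 4, and exon calls 6 higher and 3 lower instead of 10 and 6. At a threshold of 0.01 there were 0 lowered intron indices, 1 lowered junction, 5 higher and 3 lower exon calls and 7 higher contrasts with hsp104. Array weights gave 2 higher and 10 lowered junctions and 10 lowered exon calls, and centring of either kind gave 3 lowered exon calls. With centring on exon probes 15 exon calls were higher. In the 16 deletion strains 1 junction was higher and 11 were lowered, and the EFM5 junction mean over mutants was −0.045 (adjusted p = 0.0816). With zeros kept, 3 intron differences were lower and 6 contrasts with hsp104 higher. The DYN2 difference in msl1 then turned to −0.31 (adjusted p = 0.265), and those of DYN2 in mud2, EFM5 in prp18 and snu17 and TAD3 in gcr3 were no longer called. The TAD3 call in gcr3 was also lost with the median of spots (−0.39). Array weights lost the prp4-1a calls of EFM5 (adjusted p = 0.454) and TAD3. With mutants of 1 measured array tested too, the TAD3 junction mean over mutants was 0.10 (adjusted p = 0.0481).

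With each array left out in turn, intron indices were higher in 49 to 58 tests and lower in 0 to 4 (0 without the prp17 array with the mutant in channel 2), intron differences in 12 to 16 and 4 to 6, exon values in 9 to 12 and 5 to 7, and contrasts with hsp104 in 7 to 13 and 2 to 3. Junction indices were higher in 3 to 7 (7 without the prp4-1a array with the mutant in channel 1) and lower in 1 (without the prp17 array with the mutant in channel 1) to 16 (without the prp4-1a array with the mutant in channel 2). Junction differences were higher in 2 to 6 (6 without the brr1 array with the mutant in channel 1) and lower in 3 to 8 (8 without the prp4-1a array with the mutant in channel 2). Means over mutants ranged for introns over 0.25 to 0.28 (EFM5), 0.12 to 0.15 (DYN2), 0.01 to 0.03 (SRC1) and −0.15 to −0.08 (TAD3), and for junctions over −0.10 to −0.080 (EFM5, adjusted p 0.00705 to 0.083), −0.02 to 0.04 (DYN2), −0.08 to −0.06 (SRC1) and 0.066 to 0.098 (TAD3, adjusted p 0.0481 to 0.173). The cause of these changes was not tested.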
